A study of Mus musculus with 3 samples.

Results

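The Dlx genes examined here are Dlx1, Dlx2, Dlx3, Dlx5 and Dlx6, together with Dlx1as, a transcript antisense to Dlx1. They were taken as every probe set whose only gene symbol in the platform annotation is one of these names, which gave 7 probe sets for the 6 genes, out of 34954 probe sets for 18193 genes in all. RNA had been measured in ICR mouse dental papillae, the mesenchyme inside a tooth germ from which pulp and odontoblasts form, at embryonic day 16 (E16), embryonic day 18 (E18) and postnatal day 3 (P3). ICR is an outbred stock, and no mutant or treatment was involved. Papillae were separated by enzyme from lower first molar germs, and each RNA sample was a pool of over 20 of them hybridised to 1 array. With 1 array per stage there is no replicate spread, so no test between stages was possible, and all differences are between single pooled samples.

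Dlx proteins are homeodomain transcription factors related to the fly Distal-less protein, which bind AT-rich DNA and act mainly in the jaws, limbs, skin and forebrain. Mammals carry them as pairs of neighbouring genes, Dlx1 with Dlx2, Dlx3 with Dlx4 and Dlx5 with Dlx6, and the genes of a pair often share enhancers. In the jaw mesenchyme that gives rise to dental papillae, Dlx1 and Dlx2 act in both jaws, and mice lacking both fail to form upper molars, whereas Dlx5 and Dlx6 set lower jaw identity. DLX3 mutations in people cause a syndrome of hair, bone and enamel defects.

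The file holds ratios within each probe set, from which array signals were recovered in arbitrary units, as set out with the processing. Where both signals of a probe set reach the floor given below, its ratio between stages does not depend on the recovery. Which signals fall below that floor, the folds bounded by it and the choice of a gene's brightest probe set do. The recovered signal of a probe set is a lower bound, and signals of different probe sets cannot be set against each other. Signals under a floor of 82.0, the median of all recovered signals, were set to the floor, and a difference of at least 2-fold between stages was counted. The only view of measurement error is the disagreement between probe sets of one gene. The SD of a single probe set's log2 difference, within genes, was 0.61 for E18 against E16, 0.54 for P3 against E18 and 0.61 for P3 against E16. It misses errors shared by a whole array. The array quality differed between stages: 18 probe sets of spiked hybridisation controls read a median 2.17 times as high on the E18 as on the E16 array, and a median 0.45 times as high on the P3 as on the E18 array. The 3' over 5' ratio at E18 was 3.87 times that at E16 for actin and 1.42 times for Gapdh, while the ratio at P3 was 2.46 times that at E16 for actin and 0.36 times for Gapdh, which point opposite ways. The part of these array differences in the results was not tested. All 7 dental mesenchyme markers listed (Msx1, Pax9, Barx1, Lhx6, Lhx8, Vim and Twist1) reached the floor on each of the 3 arrays.

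At E18 against E16 the Dlx genes split. Dlx2 and, by less, Dlx5 were higher, while Dlx1 and Dlx1as were lower. By P3 Dlx2 had come part of the way down and Dlx1as was lower again, 10.5-fold below its E16 signal. The 2 Dlx3 probe sets and the Dlx6 probe set stayed below the floor at every stage. So 4 of the 6 genes could be compared, and these 4 reached the floor on each array, as did 9866 of the 18193 genes.

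**Figure D1:**
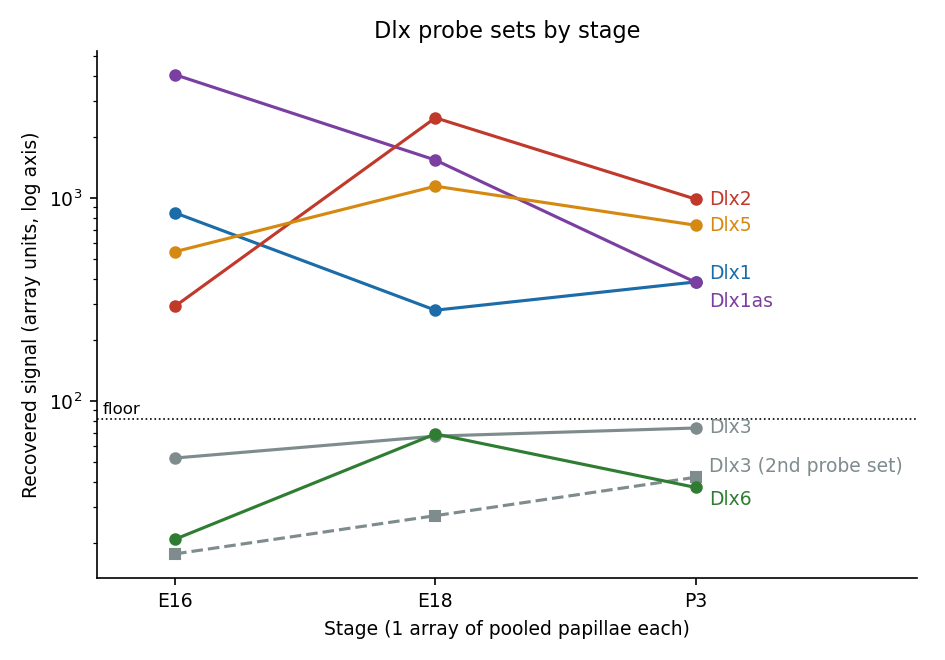
Recovered signal (arbitrary units, log axis) of each of the 7 Dlx probe sets at E16, E18 and P3, 1 array per stage, with the floor of 82.0 as a dotted line; heights of different lines cannot be compared. Dlx2 and Dlx5 peak at E18, Dlx1 and Dlx1as are highest at E16, and Dlx3 and Dlx6 stay below the floor.

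Dlx2, which acts in both the epithelium and the mesenchyme of the early tooth, had a signal of 294 at E16, 2489 at E18 and 989 at P3. The E16 array was the low one and E18 the high one. Dlx2 was 8.47-fold higher at E18 than at E16 (log2 difference 3.08, or 5.03 times the SD of a single probe set), the 16th highest difference of 12031 genes. At P3 it was 2.52-fold lower than at E18 (log2 difference -1.33), yet still 3.37-fold higher than at E16 (log2 difference 1.75, the 242nd highest of 12192 genes). A change at least as large in either direction was seen in 0.166% of genes at E18 against E16, in 7.85% at P3 against E18 and in 5.75% at P3 against E16.

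Dlx1, the chromosomal partner of Dlx2, ran the other way at the first step. Its signal was 847 at E16, 281 at E18 and 387 at P3, so E16 stood above both later arrays. It was 3.02-fold lower at E18 than at E16 (log2 difference -1.59) and 1.38-fold higher at P3 than at E18 (log2 difference 0.46, under the SD of a single probe set). At P3 it was 2.19-fold lower than at E16 (log2 difference -1.13). That last difference is under 2-fold after quantile normalization, at -0.81, and after median scaling, at -0.84. The log2 difference of Dlx1 minus that of Dlx2 was -4.68 at E18 against E16, a 25.6-fold gap between the neighbours' changes, and -2.88 at P3 against E16.

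Because Dlx1 and Dlx2 lie next to each other and changed in opposite directions between E16 and E18, their promoters are shown, from 250 bases before to 50 after the start site in the RefSeq table (build GRCm38.p6). Capitals mark matches, on either strand, to the E-box CACGTG, the GC box GGGCGG and the CCAAT box CCAAT, none of which overlap. The Dlx1 window is chr2:71529195-71529494 on the plus strand and the Dlx2 window is chr2:71546705-71547004 on the minus strand, each written 5′ to 3′ along its own gene.
Dlx1: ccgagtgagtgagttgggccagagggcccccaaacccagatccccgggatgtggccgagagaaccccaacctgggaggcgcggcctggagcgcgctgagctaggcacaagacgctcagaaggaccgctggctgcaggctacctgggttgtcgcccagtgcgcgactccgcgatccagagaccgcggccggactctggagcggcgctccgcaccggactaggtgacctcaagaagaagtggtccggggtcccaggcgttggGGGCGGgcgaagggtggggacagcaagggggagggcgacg
Dlx2: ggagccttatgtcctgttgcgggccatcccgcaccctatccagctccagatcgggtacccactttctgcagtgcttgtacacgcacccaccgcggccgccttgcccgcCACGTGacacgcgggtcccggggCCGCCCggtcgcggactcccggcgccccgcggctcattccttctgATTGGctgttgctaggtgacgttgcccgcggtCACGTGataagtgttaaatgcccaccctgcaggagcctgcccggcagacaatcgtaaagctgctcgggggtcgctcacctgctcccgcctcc
The Dlx2 window holds 2 E-boxes, which start at positions -142 and -42 counted from the start site, a GC box read on the opposite strand at -119 and an opposite-strand CCAAT box at -74. The Dlx1 window holds 1 GC box, at position 11 after the start, and none of the other 2 motifs. Among 32851 promoters of this length, 7.2% held the E-box, 35.7% the GC box and 37.4% the CCAAT box. The homeodomain core TAATT (27.0% of promoters) and the TATA box TATAAA (13.6%) were in neither window, which says nothing of binding elsewhere. Both windows are rich in G and C, at 69.3% for Dlx1 and 66.3% for Dlx2, against a median of 52.7% over all promoters. Promoters of Dlx1as, Dlx3, Dlx5 and Dlx6 are not shown.

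Dlx1as is annotated as an antisense RNA that overlaps Dlx1, and in mouse brain its loss has been reported to affect Dlx1 RNA. Its signal was 4058 at E16, 1541 at E18 and 385 at P3, a lower value at each later stage. It was 2.63-fold lower at E18 than at E16 (log2 difference -1.40), 4.0-fold lower at P3 than at E18 (-2.00) and 10.5-fold lower at P3 than at E16 (-3.40). The P3 against E16 difference was the 7th lowest of 12192 genes, and 0.254% of genes changed as much in either direction. Sense and antisense were both lower at E18, with a gap between their log2 differences of -0.20. They separated at the next, where the log2 difference of Dlx1 exceeded that of Dlx1as by 2.46, which is 3.24 times the SD expected of 2 probe sets. Whether each probe set reads a single strand was not tested.

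Most markers of dental mesenchyme were also lower at E18. Of the 7 listed, 5 passed 2-fold downwards at E18 against E16 and 0 upwards (median log2 difference -1.82), beside -1.59 for Dlx1 and -1.40 for Dlx1as. Twist1, a transcription factor gene of mesenchyme, was 4.37-fold lower. At P3 against E18, 1 of the 7 was higher and 0 lower (median 0.07), and at P3 against E16, 1 was higher and 5 lower (median -1.80). Pax9, Barx1, Lhx6 and Lhx8 are also in the homeobox list given further on. The part of this in the Dlx1 and Dlx1as values was not tested.

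Dlx5, a regulator of lower jaw identity and of bone-forming cells, was also highest at E18. Its signal was 545 at E16, 1146 at E18 and 736 at P3. It was 2.10-fold higher at E18 than at E16 (log2 difference 1.07) and 1.56-fold lower at P3 than at E18 (-0.64). The P3 and E16 values lay close, 1.35-fold apart with P3 the higher (0.43), a size that 55.2% of genes reached. In units of the SD of a single probe set, the 3 differences came to 1.75, -1.19 and 0.71. The Dlx5 probe set is of the kind that reads several transcripts of its gene.

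Dlx6, the partner of Dlx5, had signals of 20.9 at E16, 69.0 at E18 and 37.6 at P3, all below the floor. No fold is given for signals below the floor; its deposited ratios (0.555, 1.84 and 1.0) were also highest at E18. With the floor halved, E18 would exceed E16 by at least 1.68-fold. For Dlx3, a regulator of hair, enamel and bone, the brighter probe set had 52.5, 67.3 and 73.8 at E16, E18 and P3 and the other had 17.7, 27.3 and 42.2. Both were lowest at E16 and highest at P3. The bacterial poly-A control probe sets, which no mouse RNA should match, reached 70.2 at most over 81 values with a median of 7.8. All Dlx6 values and 5 of the 6 Dlx3 values lay below that highest control value. Whether control RNA was added to the samples was not checked. Recovered signals are lower bounds, so this comparison between probe sets is a rough guide only.

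Counted over the family, 2 of the 4 measured genes passed 2-fold upwards at E18 against E16 (Dlx2 and Dlx5) and 2 downwards (Dlx1 and Dlx1as). Of 12031 genes measured in that comparison, 16.2% passed 2-fold in either direction, 8.1% higher and 8.13% lower. At P3 against E18, 0 of 4 were higher and 2 lower (Dlx1as and Dlx2), where 15.8% of 12118 genes passed 2-fold, 4.07% higher and 11.7% lower. At P3 against E16, 1 of 4 was higher (Dlx2) and 2 lower (Dlx1 and Dlx1as), where 22.1% of 12192 genes passed, 6.57% higher and 15.6% lower. With 4 genes, the counts describe these arrays only.

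The balance of higher and lower genes depends on how the arrays are scaled. At P3 against E18, higher genes were 25.7% of all past 2-fold with the deposited scaling, 48.1% when the arrays were quantile normalized and 45.4% when their medians were matched. At P3 against E16 the shares were 29.7%, 49.4% and 51.7%, and at E18 against E16 they were 49.9%, 52.5% and 58.3%. The median log2 difference of all genes at P3 against E16 was -0.17 in the deposited scaling, 0.03 and 0.09 in the same order. No Dlx gene changed direction under any of these scalings, but the difference of Dlx2 at P3 against E18 came to -0.83 after quantile normalization, under 2-fold.

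**Figure D2:**
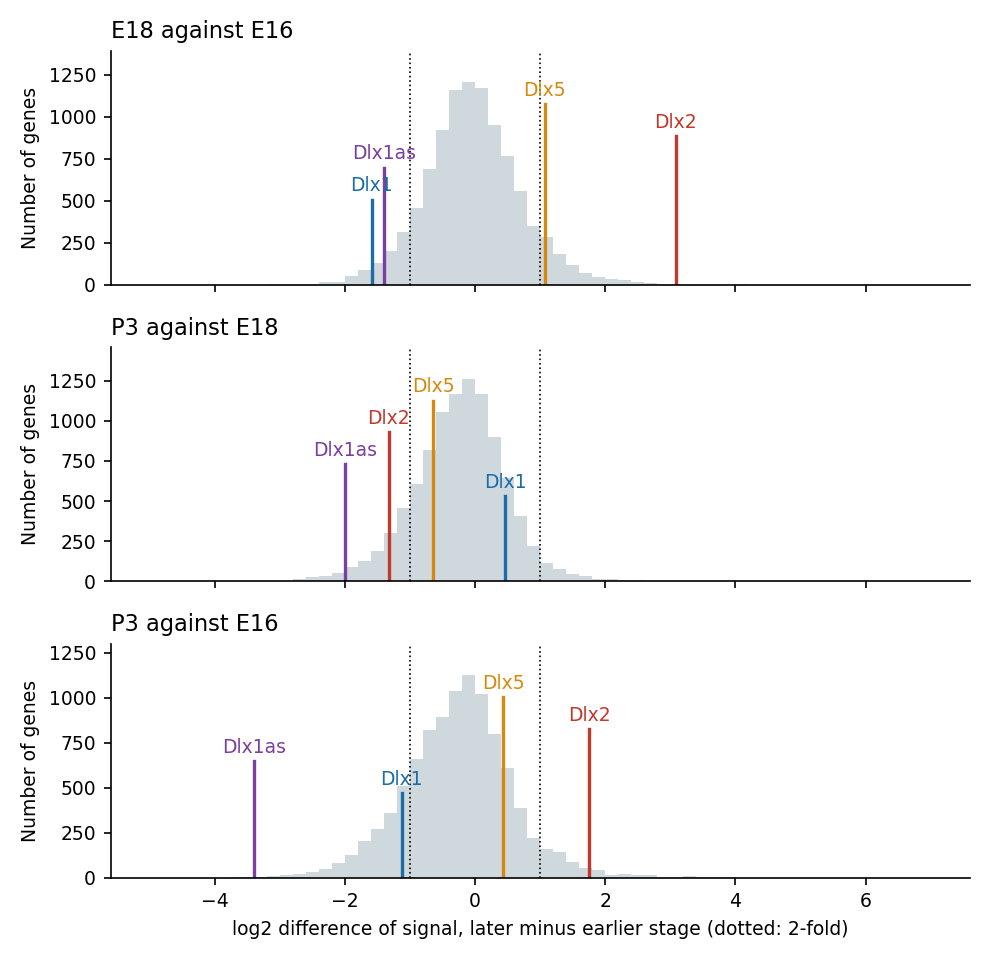
Histograms of log2 differences between stages (later minus earlier) for the 9866 genes that reached the floor on every array, 1 panel per comparison, with vertical lines for Dlx1, Dlx1as, Dlx2 and Dlx5 and dotted lines at 2-fold; line heights only separate the names. Dlx2 lies far to the right at E18 against E16, with a log2 difference of 3.08, and Dlx1as far to the left at P3 against E16, at -3.40.

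Taking both steps as a pair of log2 differences, the 4 genes fell into 4 different classes with the deposited scaling. After quantile normalization Dlx2 was under 2-fold at P3 against E18 (-0.83) and would share the class of Dlx5. Dlx2 was among 308 genes (3.12% of 9866) at least 2-fold higher at E18 and then 2-fold lower at P3. Dlx1as was among 40 genes (0.405%) at least 2-fold lower at both steps. Dlx1 was among 701 genes (7.11%) 2-fold lower at E18 and under 2-fold afterwards, and Dlx5 among 479 (4.86%) 2-fold higher at E18 and under 2-fold afterwards.

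The genes nearest in pattern were found by Euclidean distance between these pairs of log2 differences, over the 3 arrays and the 9866 genes. Nearest to Dlx2 were the sphingomyelin synthase gene Sgms2 (distance 0.247), the zinc finger factor gene Klf4 (0.276) and the chromatin organiser Satb1 (0.334), and 4 genes lay within 0.5. Nearest to Dlx1as were the recombination gene Rad54l (0.252), the thymidine kinase gene Tk1 (0.405) and the splicing factor gene Prpf3 (0.434), with 12 genes within 0.5. Dlx2 and Dlx1as thus had few close matches on these arrays.

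Dlx1 and Dlx5 lay in crowded parts of the plot. Nearest to Dlx1 were the zinc finger gene Zfp790 (distance 0.049), the membrane trafficking gene Nbea (0.057) and the homeobox gene Six2 (0.058), and 237 genes lay within 0.5. Nearest to Dlx5 were the tetraspanin gene Cd151 (0.014), Rin2 (0.023) and the nuclear receptor corepressor gene Nrip1 (0.027), with 698 genes within 0.5.

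**Figure D3:**
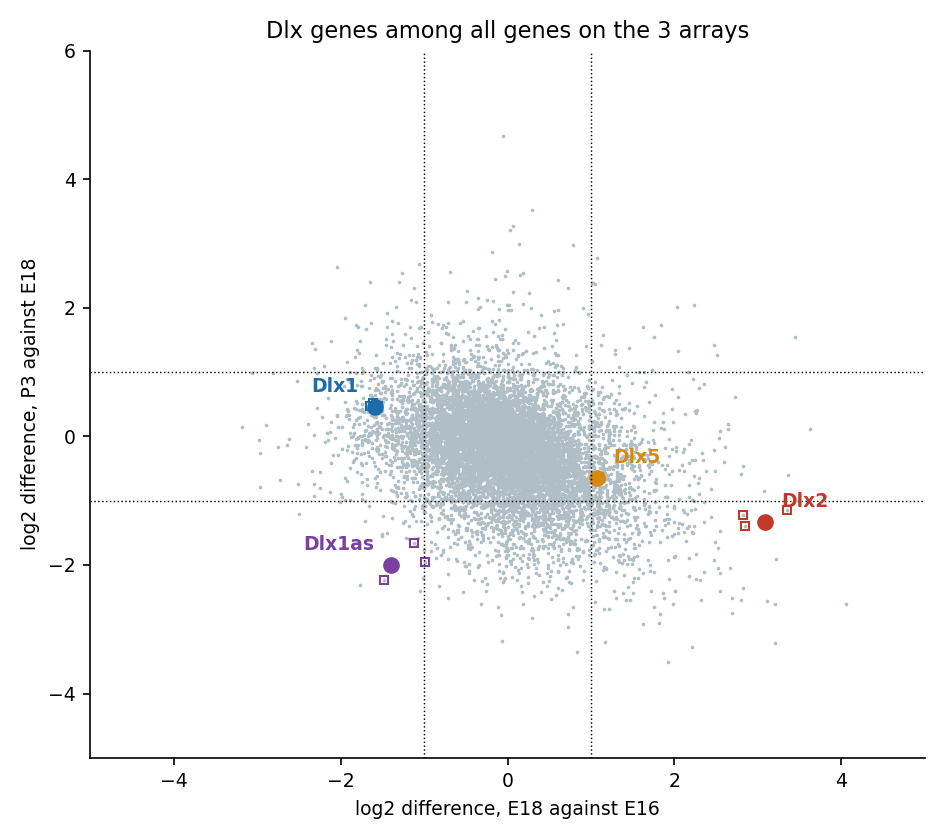
Each grey point is 1 of 9866 genes, with its log2 difference at E18 against E16 on the x axis and at P3 against E18 on the y axis; filled circles are the 4 Dlx genes, open squares the 3 genes nearest to each, and dotted lines mark 2-fold. Dlx2 sits at the lower right with few genes around it, Dlx1as at the lower left, and Dlx1 and Dlx5 at the left and right edges of the main cloud.

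Dlx genes are active in dental epithelium as well as in the papilla, so epithelial markers are given beside them. Of 17 markers listed, 15 had a probe set and 13 could be compared. At E18 against E16, 9 of 13 passed 2-fold upwards and 0 downwards (median log2 difference 1.22), and at P3 against E18 the counts were 0 upwards and 11 downwards (median -1.91). Most of the 13 markers were highest on the E18 array, as were Dlx2 and Dlx5. The part of this in the E18 values of Dlx2 and Dlx5 was not tested. In bulk RNA of pooled papillae, more cells of a type and more RNA per cell cannot be told apart.

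At P3 against E16 1 of the 13 epithelial markers was higher and 4 lower (median log2 difference -0.44), and Dlx2 was 3.37-fold higher. In that comparison E-cadherin (Cdh1), a junction protein of epithelia, was 1.40-fold higher and the basal keratin gene Krt5 2.75-fold lower. The part of epithelial RNA in these values was not tested either.

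Odontoblasts differentiate at the rim of the papilla over the same stages. Of 11 genes of mineralised tissue that have been linked to Dlx3 and Dlx5, 8 had a probe set and were measured at E18 against E16, where 3 were at least 2-fold higher and 1 lower (median log2 difference 0.71, against -0.04 over all genes). Dspp, the main dentin protein precursor gene, was at least 51.1-fold higher, Dmp1, for an acidic dentin matrix protein, at least 45.4-fold (at least 26.5-fold and at least 1.82-fold by other probe sets) and Phex at least 3.99-fold (at least 1.06-fold by another). Ibsp, the bone sialoprotein gene, was 2.44-fold lower (at least 1.56-fold by another). Between E18 and P3, 4 of 7 were higher at P3, led by Col1a1 (41.7-fold, but 1.30-fold by another probe set), Phex (12.7-fold, but 1.44-fold by another) and Dspp (4.66-fold), and Dmp1 was 4.75-fold lower. Between E16 and P3, 5 of 8 were higher at P3, led by Dspp (at least 238-fold), Col1a1 (at least 81.1-fold, but 2.04-fold by another probe set) and Phex (at least 50.6-fold, but at least 1.52-fold by another), and Ibsp was 3.53-fold lower (at least 1.56-fold by another). Since 4 of the 8 were below the floor at E16, those 4 had no room to be lower later. Of 7 odontoblast markers, 5 of which (Dspp, Dmp1, Phex, Alpl and Col1a1) are among the genes just counted, 5 were higher at P3 than at E18 and 1, Dmp1, was lower, a step at which Dlx2 was lower and Dlx5 stayed under 2-fold.

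Of 7 enamel genes that Dlx2 and Dlx3 have been linked to, 3 of 5 measured were higher at E18 than at E16, namely amelogenin (Amelx, at least 6.88-fold, and at least 2.23-fold by another probe set), Odam (at least 6.0-fold) and Ambn (3.91-fold), and 0 lower. Just 2 of the 7 reached the floor at E16. Between E18 and P3, 4 of 7 were higher at P3, led by the enamel protease gene Mmp20 (27.1-fold), Enam (at least 11.4-fold, where another probe set stayed below the floor) and Amelx (4.14-fold, and 5.62-fold by another), and Odam was 5.87-fold lower. Over the whole span, E16 to P3, 5 of 7 were higher and 0 lower. Dlx3, the family member best known in enamel, stayed below the floor on all 3 arrays.

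Other homeobox genes of the tooth germ and jaw went both ways at E18, as the Dlx genes did. Of 20 listed, 16 had a probe set and 10 were measured, and at E18 against E16 the 2-fold mark was passed downwards by 5 and upwards by 2 (median log2 difference -0.93). The LIM homeobox gene Lhx6 was 4.45-fold lower, Barx1, a marker of the molar field, 3.53-fold lower and Pax9, which is needed for tooth development past the bud stage, 3.53-fold lower. For Pax9, other probe sets read 1.97-fold lower and 1.31-fold higher. The 2 higher genes, named after their values were seen, were Pitx1 (2.51-fold, against at least 1.02-fold lower by another probe set) and Msx2 (2.02-fold, against 1.01-fold lower by another). None of the 10 approached the 8.47-fold difference of Dlx2.

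After E18, 7 of these 10 genes stayed under 2-fold. Between E18 and P3, 1 of 10 was higher at P3 and 2 lower (median log2 difference -0.01). Msx1, the best known homeobox gene of dental mesenchyme, was 2.31-fold higher (at least 1.15-fold by another probe set), Pitx1 3.60-fold lower and Meis1 2.34-fold lower, where another Meis1 probe set gave at least 1.94-fold higher. Over the whole span, E16 to P3, 1 was higher and 5 lower, among them Lhx6 (4.60-fold), Pax9 (4.48-fold, where others read 1.85-fold lower and 1.04-fold higher) and Lhx8 (3.48-fold), with a median of -1.05. None of the 10 was as low as Dlx1as, which had a log2 difference of -3.40.

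**Figure D4:**
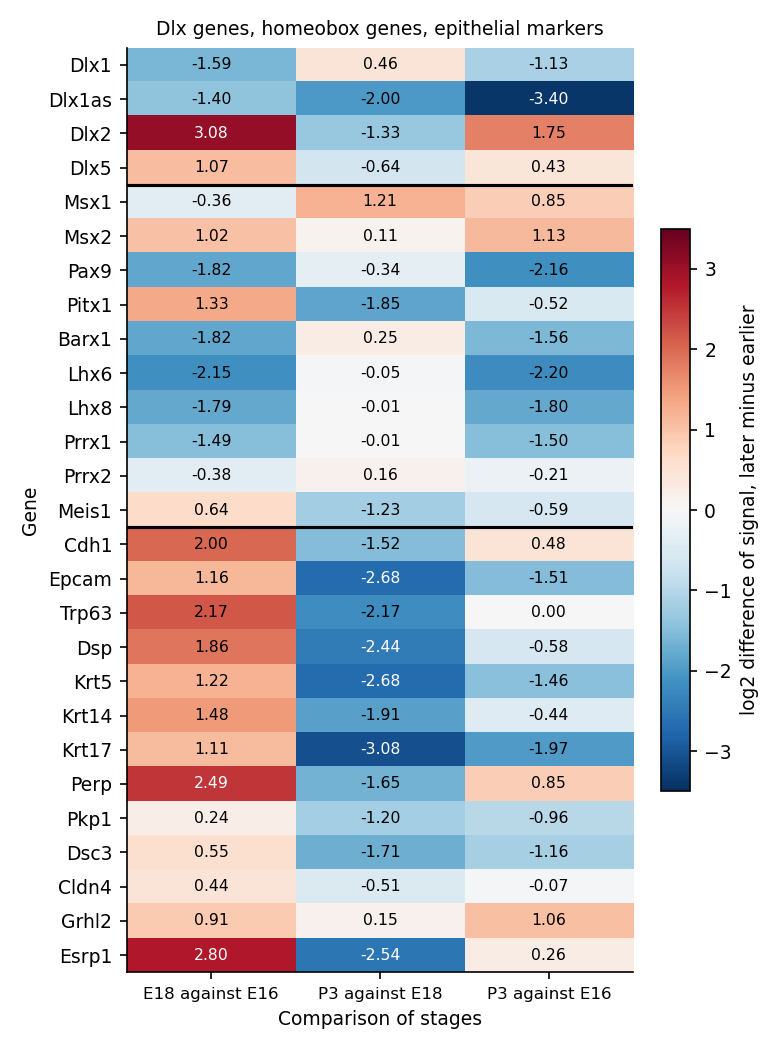
Log2 differences of signal between stages (columns, later minus earlier) for the 4 measured Dlx genes, 10 other homeobox genes and 13 epithelial markers (rows), coloured from blue (lower) to red (higher); the Krt17 values that involve P3 are bounds. Dlx2 and Dlx5 share with most epithelial markers a red then blue pair of columns, and Dlx1 shares blue in the E18 column with Pax9, Barx1, Lhx6, Lhx8 and Prrx1.

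BMP and FGF signals, which induce Dlx genes in early jaw mesenchyme, were listed together with the hedgehog signal gene Shh. Of these 8 listed genes 7 were measured, and Shh is in the counts. At E18 against E16, 2 were higher, Bmp2 (12.3-fold) and Shh (2.10-fold), and 0 lower. Between E18 and P3, 0 were higher at P3 and 3 lower, namely Fgf9 (5.77-fold, against 1.09-fold by another probe set), Shh (2.90-fold) and Fgf3 (2.36-fold, and 2.28-fold by another). Against E16, Bmp2 at P3 was 13.3-fold higher, and Fgf9, Fgf3 and Bmp4 were 4.01-fold, 3.49-fold and 2.75-fold lower. Another Fgf9 probe set read 1.1-fold lower there, and 2 others of Fgf3 read 3.08-fold and at least 1.48-fold lower. Bmp2 had a larger difference than Dlx2 at E18 against E16, and its P3 and E18 signals were 1.08-fold apart with P3 the higher.

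The other transcripts of the Dlx loci did not pass 2-fold by their brightest probe sets. Dlx6os1, an RNA from the Dlx5 and Dlx6 locus that is known in forebrain to act on those genes, had 1022 at E16, 571 at E18 and 542 at P3. It was 1.79-fold lower at E18 than at E16, whereas Dlx5 was 2.10-fold higher. Dlx4, the partner of Dlx3, had 1420, 1217 and 1092 by one probe set and 491, 803 and 1507 by the other. These 2 gave 1.30-fold lower and 3.07-fold higher at P3 than at E16, so the direction of Dlx4 depends on the probe set. Dlx4os ranged between 366 and 413, and Dlx6os2 did not exceed 15.9.

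Genes next to the Dlx loci were set beside them, with 3 genes on each side of each pair in RefSeq order, 18 in all. Of 15 measured at E18 against E16, by their brightest probe sets 3 passed 2-fold upwards and 0 downwards (median log2 difference 0.38). They were Dync1i1 (2.41-fold), Pdk1 (2.32-fold, and between 2.73-fold higher and 1.35-fold lower by 3 others) and Sem1, the proteasome subunit gene beside the Dlx6 end of its locus (2.01-fold, and 2.31-fold by another). Another Kat7 probe set read 2.95-fold lower at E18, and another of Slc25a12 2.0-fold lower. The brightest probe sets of these genes read 1.52-fold higher and 1.27-fold lower. The 6 genes around Dlx5 and Dlx6 went both ways: besides Dync1i1 and Sem1, the mitochondrial assembly gene Sdhaf3 was 1.99-fold and Slc25a13 1.31-fold higher, while Tac1 was 1.81-fold lower (at least 1.16-fold higher by another probe set) and Asns 1.47-fold lower (1.27-fold by another). Beside Dlx2, the laminin receptor gene Itga6 was 1.83-fold higher at E18 (1.12-fold by another probe set), less than Dlx2.

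Between E18 and P3, 0 of 15 neighbours were higher at P3 and 4 lower by their brightest probe sets, with a median log2 difference of -0.68. The lower genes were led by Slc25a13 (at least 3.11-fold), Pdk1 (2.79-fold, and between 2.76-fold lower and 1.37-fold higher by others) and the histone acetyltransferase gene Hat1 (2.73-fold). Another Itga6 probe set read 4.12-fold lower, while the brightest of Itga6 did not pass 2-fold. The log2 differences of the 6 genes around Dlx5 and Dlx6 lay between -1.64 (a bound) and -0.18, beside -0.64 for Dlx5. Over the whole span, E16 to P3, 0 of 14 were higher and 5 lower by their brightest probe sets. Those lower were led by Asns (3.17-fold, and 4.21-fold by another), Hat1 (2.64-fold) and Slc25a12 (2.54-fold, and 1.88-fold and 2.37-fold by others). Another Itga6 probe set read 3.68-fold lower, against 1.09-fold lower by the brightest. For Kat7, others read 2.49-fold and 1.12-fold lower, against 1.09-fold higher by the brightest. By measured values or bounds, none of these neighbours was as high at E18 against E16 as Dlx2 or as low at P3 against E16 as Dlx1as.

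**Figure D5:**
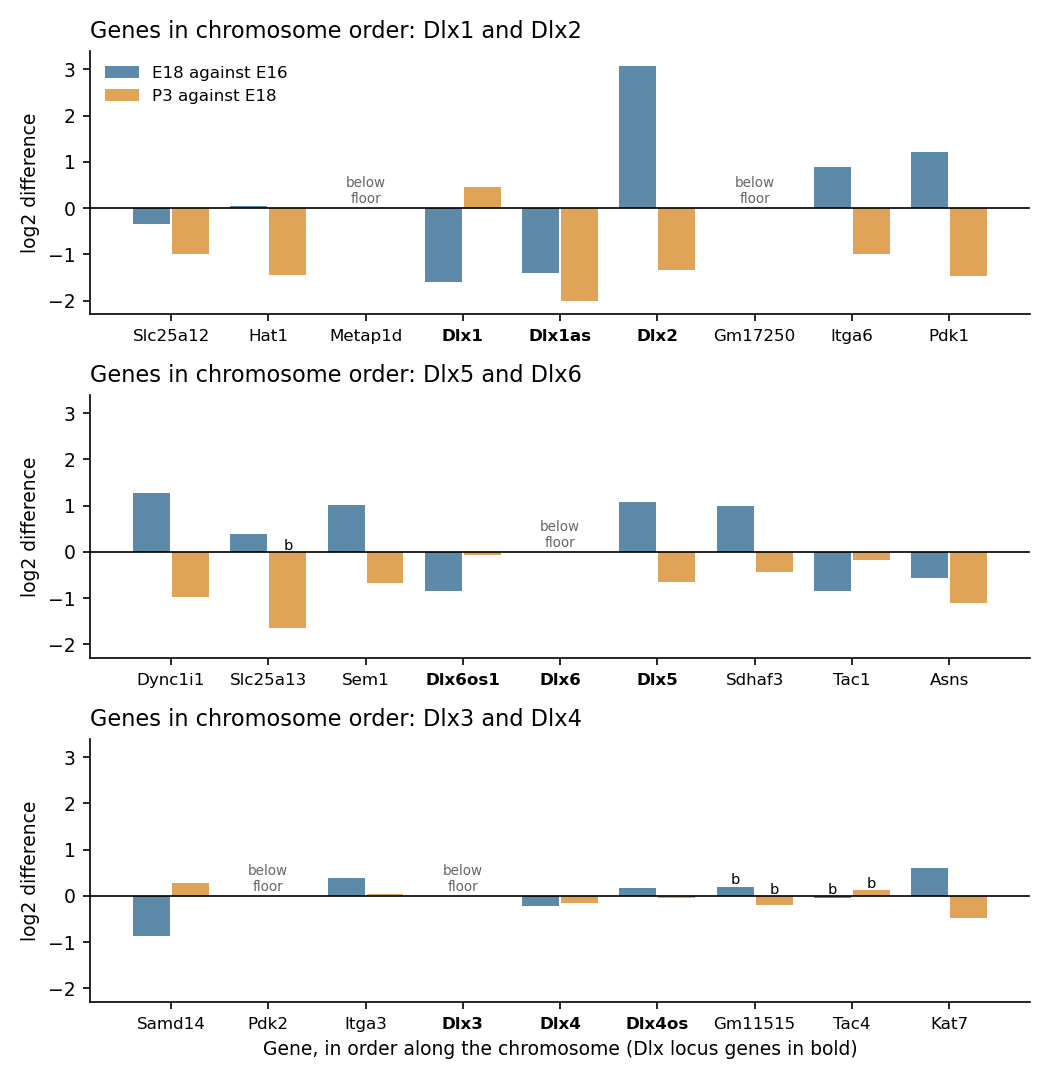
Log2 differences at E18 against E16 (blue bars) and at P3 against E18 (orange bars) for the Dlx locus genes (bold names) and 3 genes on each side, in chromosome order, 1 panel per locus; "below floor" marks genes with no comparison and the letter b a bound. The Dlx1 and Dlx2 bars point opposite ways at the first step, and the genes around Dlx5 point both ways, with Sem1 (2.01-fold) higher and Tac1 (1.81-fold) lower.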

How the data were processed

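The values are the deposited ratios of 45101 probe sets on an oligonucleotide array. Per the submitters' processing notes the authors used GCOS (version not given). RNA was labelled in 2 cycles per the labels' protocols. How the ratios were scaled and centred is not given in the sources used here. The middle value was 1 within 1e-06 in 90.4% of probe sets, and in the others 99.98% of values were whole numbers of steps within 0.01 of a step, with factors of 0.7177 for E16 and 1.0802 for E18 relative to P3. Signals were recovered as the smallest whole numbers of steps, 10 per signal unit, that fit all 3 ratios within 3e-07. The true signal is never lower than that. Among probe sets whose steps were known directly, 17.2% had step numbers with a common factor, which this rule would have understated. Understatement through chance solutions is not in that share. The middle signal of Dlx1 took 3868 steps; those of Dlx1as, Dlx2 and Dlx5 took 14267, 9894 and 7597, a size at which chance solutions occur. The recovery and the 2-fold call were tested on simulated data for P3 against E16 (9019 probe sets, of which 100 changed by 2-fold and 100 by 4-fold). There 48.0% of the 2-fold and 98.0% of the 4-fold changes were called, and 0.16% of the unchanged. The simulated noise was chosen, and was smaller than the probe set SD of 0.61 found for P3 against E16. Changes were planted in brighter probe sets only. These shares are therefore not the error rates of the real arrays.

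The gene table lists 35890 probe sets, 34958 with 1 symbol and 932 with several; 9160 are not listed. All 10 Dlx symbols were found in the RefSeq table. A gene was represented by its probe set with the highest mean signal and measured where at least 1 array of a comparison reached the floor; with 1 side below, the fold is a bound, written "at least". Genes were named by a written rule: all members, the 3 largest differences per list and comparison, its best known member, and the 3 nearest genes per member. Members, lists and rules were chosen with earlier results of these data known. Alternatives were quantile normalization, median scaling over genes that reach the floor on every array, the floor halved or doubled, mean over probe sets, probe sets of several transcripts left out, and the ratios as deposited. Python 3.11.15, numpy 2.4.6, pandas 2.3.3 and matplotlib 3.10.9 were used.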

Additional observations from a re-analysis of the deposited data

How the results depend on the processing

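Of the alternatives tried, quantile normalization and median scaling alone could move the log2 differences of Dlx1, Dlx1as, Dlx2 and Dlx5, which have 1 probe set each and signals above every floor used. Under both scalings these differences kept their direction in all 3 comparisons and moved by less than the SD of a single probe set. At E18 against E16, Dlx2 ranged between 2.97 and 3.17, Dlx1 between -1.59 and -1.49, Dlx1as between -1.72 and -1.31 and Dlx5 between 1.07 and 1.16. At P3 against E16, Dlx1as ranged between -3.40 and -3.11. After quantile normalization 1 Dlx gene, not 2, was past 2-fold at P3 against E18, since Dlx2 came to -0.83; Dlx1 at P3 against E16 came to -0.81, and to -0.84 after median scaling. With the ratios as deposited and no floor, Dlx6 was also past 2-fold at E18 against E16, from signals below the highest bacterial control value. Leaving out probe sets of several transcripts removed Dlx5, so 3 Dlx genes were measured at E18 against E16, 1 higher and 2 lower. The totals of all genes past 2-fold stayed within 1.5 times under both scalings, but their parts did not: at P3 against E18, 493 genes were higher with the deposited scaling, 799 after quantile normalization and 786 after median scaling, and 1423, 863 and 947 were lower in the same order. At P3 against E16, 801, 1236 and 1265 were higher and 1899, 1267 and 1180 lower. No paired analysis was possible because each stage has 1 array. Precision is limited by the number of arrays, and Dlx3 and Dlx6 by their signal over background.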

Other observations

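Genes of GABA neurons, which Dlx1 and Dlx2 control in the forebrain, were nearly all below the floor. Of 8 listed, 6 had a probe set, and 0 reached the floor at E16 or E18. Gad1, the GABA-synthesising enzyme gene, had a signal of 566.7 at P3, against 40.5 at E18 and 55.3 at E16, a difference of at least 6.91-fold in both comparisons. Another Gad1 probe set did not exceed 16.7, so the Gad1 value rests on a single probe set. Of 8 general neuron markers, Gad1 and Gad2 among them, Tubb3, Snap25, Elavl4 and Gad2 were below the floor on all 3 arrays. Stmn2 had 163.8 at E16, 179.3 at E18 and 107.7 at P3. Rbfox3 had 138.0 at E16, 309.7 at E18 and 134.1 at P3, 2.24-fold higher at E18 than at E16 (1.04-fold lower by another probe set), and Nefl reached the floor at E18 alone, at 102.7.

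For genes of the endothelin pathway and of jaw patterning, which act around Dlx5 and Dlx6, the counts show little, since few were measured and some folds are bounds. By the brightest probe sets of the 13 listed, 0 of 7 measured passed 2-fold at E18 against E16. The counts were 0 of 6 at P3 against E18 and 0 of 8 at P3 against E16. Of all genes, 16.2%, 15.8% and 22.1% passed 2-fold in the same order. Edn1, for the ligand endothelin, had 88.2 at E16 and was below the floor at E18 and P3 (at least 1.08-fold lower), as was Pou3f3 after 134.8 at E16 (at least 1.64-fold lower), and a bound does not show how large these differences were. Mef2c, the transcription factor gene that links endothelin signalling to Dlx5 and Dlx6 in the jaw, had 1356 at E16, 1532 at E18 and 1056 at P3 by its brightest probe set. Another Mef2c probe set read 2.53-fold lower at P3 than at E18 and 2.3-fold lower than at E16. The remaining probe sets of Mef2c and Nr2f2 did not pass 2-fold. Hand2, a target of the endothelin pathway, was below the floor at E16 and E18 and 94.3 at P3.

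For proteins known to bind Dlx proteins or to act with them, 7 genes were listed and measured. By their brightest probe sets, 2 passed 2-fold upwards at E18 against E16 and 2 at P3 against E18. At P3 against E16, 2 passed upwards and 1 downwards. Of all genes, 16.2%, 15.8% and 22.1% passed in either direction in the same order. Msx2, counted upwards at E18 and at P3 against E16, was 1.01-fold lower and 1.02-fold higher by another probe set. Msx1, counted upwards at P3 against E18, was at least 1.15-fold higher by another. Another Ndn probe set read 2.17-fold lower at E18 than at E16. Smad6, an inhibitor of BMP signalling, was higher at both steps (2.45-fold and 2.53-fold), and 6.20-fold higher at P3 than at E16. Maged1, which encodes a Dlx-binding protein of the MAGE family, was 2.13-fold lower at P3 than at E16.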
